A study of Mus musculus with 12 samples.

Results

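Topical Banzhilian formula (BZLF) was compared with saline (NS) on imiquimod (IMQ)-induced psoriasis-like lesions by RNA-seq of mouse back skin. BZLF is a traditional Chinese prescription for psoriasis, known from oral use and made from granules of plant materials and cicada slough. The members of the comparison were the 4 IMQ + BZLF and the 4 IMQ + NS samples among the 12 samples of the series, and the 15288 genes, of 18505 listed, whose FPKM (fragments normalised to transcript length and library size) averaged at least 0.1 over all samples. All mice were young male BALB/c mice of WT genotype whose back hair had been shaved. In both groups IMQ cream was applied once daily for some hours and the skin was then covered, with saline in the IMQ + NS group and with BZLF in the IMQ + BZLF group, under gauze and a polyurethane film. The lesions were taken on day 10. IMQ was thus common to both groups, and no skin that received BZLF without IMQ entered the comparison. The control group (4 samples), whose skin was coated with petroleum jelly, is given here only as a level beside the lesions. Which of the BZLF doses in the study the sequenced mice received is not given in the sources used here.

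IMQ is an agonist of Toll-like receptor 7, and repeated application to mouse skin gives erythema, scaling, epidermal thickening and an infiltrate rich in neutrophils. IL-23 from myeloid cells sustains T cells that make IL-17A and IL-17F, and keratinocytes respond to IL-17 together with TNF and IL-36 by producing antimicrobial proteins, neutrophil-attracting chemokines and the proteins of a stress-induced cornified envelope. The cornified envelope is the protein shell that replaces the membrane of keratinocytes as they die to form the skin surface, and many of its genes lie together in the epidermal differentiation complex.

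The samples had the keratin genes of skin at high levels. Krt14 of basal keratinocytes was at 516 to 2958 FPKM and Krt10 of suprabasal keratinocytes at 483 to 1812 FPKM across the 8 lesion samples. Log2 values of samples within a group correlated across genes at Pearson's r of 0.983 to 0.990, and no pair of samples held the same values. IMQ + BZLF replicate 1 stood at the low end of its group for the summed levels of chemokine, T cell and matrix metalloproteinase genes and at the high end for melanocyte genes, and IMQ + NS replicate 3 stood at the high end for many inflammatory genes. Counts that moved by more than 1.5 times when 1 sample was left out are given with that sample. Transcripts of organs other than skin were present in some samples. The summed FPKM of 13 pancreas genes was 62.4, 71.3, 307 and 2.66 in IMQ + NS replicates 1 to 4. It was 241, 263, 265 and 24.5 in the IMQ + BZLF and 253, 268, 288 and 26.4 in the control samples. The replicates thus stood in the same order in every group. The seminal vesicle sum was 41.2 in IMQ + BZLF replicate 2 and 42.9 in control replicate 2, against at most 1.59 in the other lesion samples. The kidney sum was highest in replicate 1 of the IMQ + BZLF (4.13) and control (5.55) groups. Whether samples with the same number shared a source was not tested. None of the genes of these lists was called.

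BZLF-treated lesions had lower levels of 336 genes and higher levels of 49 genes than saline-treated lesions, with calls made by limma on log2(FPKM + 0.1) where the adjusted p was under 0.05 and the levels differed by more than 1 on the log2 scale. These were 2.20% and 0.321% of the genes tested, and 2.52% in either direction. The falls were also larger than the rises. Among the lower genes 120 differed by more than 4-fold and 27 by more than 16-fold, against 6 and 0 of the higher genes, and the median log2 fold change was -1.635 for the lower and 1.311 for the higher genes beside -0.023 for all genes tested. In 331 of the lower genes all IMQ + BZLF samples lay below all IMQ + NS samples, an arrangement found in 10.9% of all genes, and in 46 of the higher genes they all lay above, as in 4.24% of all genes. The number of lower genes ranged from 227 to 350 when any single sample was left out. The number of higher genes was less stable, with 19 when treated replicate 2 was left out and 78 when treated replicate 1 was. It was 25 when saline replicate 3 was left out and 29 when saline replicate 4 was.

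**Figure D1:**
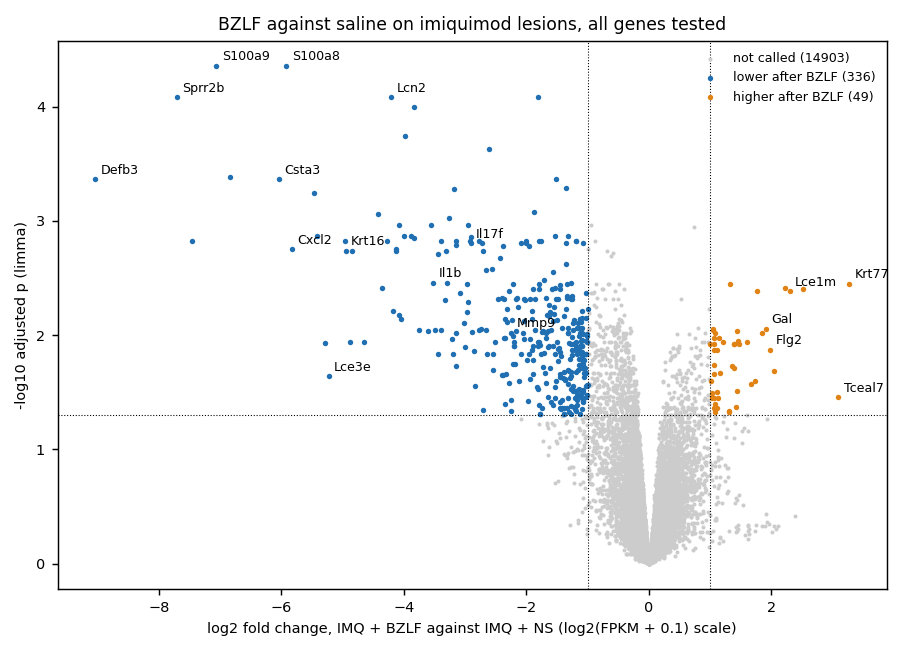
Each point is 1 of the 15288 genes tested, with the log2 fold change of IMQ + BZLF against IMQ + NS on the horizontal axis and the -log10 adjusted p of limma on the vertical axis. The dotted lines mark an adjusted p of 0.05 and a log2 fold change of 1 in either direction, and the 336 lower genes (blue) reach further from 0 than the 49 higher genes (orange).

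The lower genes also accounted for a visible share of the transcripts of saline-treated lesions. They held 3.32% to 7.15% of the summed FPKM of the IMQ + NS samples and 0.496% to 0.997% of that of the IMQ + BZLF samples, next to 0.622% to 0.719% in control skin. The higher genes held 0.0378% to 0.0642% in IMQ + NS samples, 0.104% to 0.177% in IMQ + BZLF samples and 0.36% to 0.752% in control skin. Set beside the range of the control samples, the IMQ + NS median was above it for 292 of the 336 lower genes, and the IMQ + BZLF median lay above it for 90, within it for 114 and below it for 132. Of the 49 higher genes, 44 had an IMQ + NS median below the control range, and for 37 the IMQ + BZLF median was below it too. In bulk skin, fewer cells of a type and less RNA per cell cannot be told apart, here and in all results that follow.

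Antimicrobial proteins and alarmins included the largest fall of any named gene. Of 20 such genes, 13 were lower in BZLF-treated lesions and none was higher, with a median log2 fold change of -2.89. Defb3, a beta-defensin of the epidermis, was at 90.4, 153, 378 and 142 FPKM in the IMQ + NS samples and at 0.640, 0.0808, 0.630 and 0 FPKM in the IMQ + BZLF samples. The difference was a log2 fold change of -9.04 ± 0.69 (SE, adjusted p = 0.000432), although 1 treated sample was listed at 0 and the fold change of such a low gene depends on the constant added. S100a8 and S100a9 encode the subunits of calprotectin, which binds zinc and manganese and is made by both neutrophils and activated keratinocytes. S100a9 was at 1537, 2675, 4957 and 2468 FPKM with saline and at 14.8, 15.6, 23.02 and 28.98 FPKM with BZLF (log2 fold change -7.06 ± 0.34 (SE), adjusted p = 4.37e-05). For S100a8 the levels were 1569, 3053, 4874 and 2544 FPKM with saline and 45.01, 42.5, 46.9 and 48.6 FPKM with BZLF (log2 fold change -5.92 ± 0.28 (SE), adjusted p = 4.37e-05). All treated samples were thus far below all saline samples, and S100a9 was close to its control level of 12.9 to 21.4 FPKM whereas S100a8 remained above its control level of 11.4 to 20.3 FPKM. Lcn2, lipocalin-2, which binds bacterial siderophores, was at 60.5, 124, 148 and 86.2 FPKM with saline and at 4.86, 5.77, 4.93 and 5.58 FPKM with BZLF, beside 4.17 to 5.63 FPKM in control skin (log2 fold change -4.21 ± 0.24 (SE), adjusted p = 8.26e-05). The other members that fell were the acute-phase proteins Saa1, Saa2 and Saa3, the chitinase-like Chil1, the defensins Defb4, Defb6 and Defb14, lactoferrin (Ltf) and the protease inhibitor Slpi, with log2 fold changes of -4.28 to -1.65. The cathelicidin gene Camp (log2 fold change -0.40, adjusted p = 0.373) and S100a7a (0.30, adjusted p = 0.231), both singled out after their values were seen, did not pass the test.

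Most neutrophil markers were lower as well. Of 28 neutrophil genes, 21 were lower and 2 were higher (Mpo and Wfdc21), and their summed FPKM was 3416 to 10260.4 in IMQ + NS samples, 319 to 541 in IMQ + BZLF samples and 249.9 to 373 in control skin. Without 1 sample 17 to 20 were lower, and neither Mpo nor Wfdc21 was called without IMQ + BZLF replicate 2 or IMQ + NS replicate 3 or 4. Only 1 of the 2 was called without IMQ + BZLF replicate 3 or IMQ + NS replicate 1 or 2. The summed level is carried by S100a8 and S100a9. Among the 16 markers that no other list held, 11 were lower and 2 higher, with a median log2 fold change of -2.06, and their sum did not separate the groups because Wfdc21 made up much of it (214 to 242 FPKM with saline and 218 to 441 FPKM with BZLF). The defining surface marker Ly6g was at 1.12, 0.475, 1.41 and 0.426 FPKM with saline and 0.0275, 0.0556, 0 and 0.443 FPKM with BZLF (log2 fold change -2.25 ± 0.56 (SE), adjusted p = 0.0465), and the granule protease gene Elane at 0.595, 0.369, 1.24 and 0.596 and 0.112, 0.283, 0.248 and 0.133 FPKM (log2 fold change -1.38 ± 0.33 (SE), adjusted p = 0.0434). Ly6g and Elane, named outside the rule for named genes, were low in all samples, and Ly6g overlapped between the groups through IMQ + BZLF replicate 4. The control range of Elane, 0.0544 to 0.728 FPKM, overlapped its saline samples. Other granule genes of the list went both ways. Ngp, Ltf and Mmp8 were lower, Mpo was higher, and Prtn3 (log2 fold change -0.37), Ctsg (-0.996) and Camp (-0.40) were not called. The part of neutrophil RNA in the falls of the antimicrobial, chemokine receptor, pattern receptor and metalloproteinase genes was not tested.

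**Figure D2:**
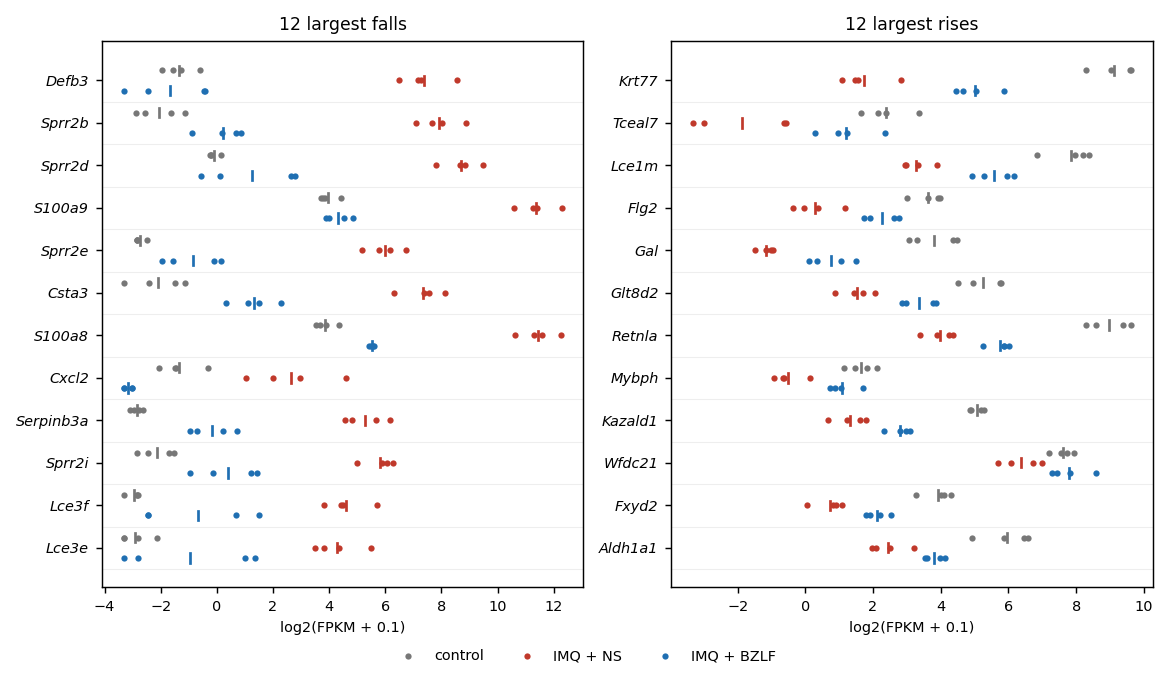
Level of the 12 genes with the largest falls (left) and the 12 with the largest rises (right) on the log2(FPKM + 0.1) axis, with a point for each sample of the control (grey), IMQ + NS (red) and IMQ + BZLF (blue) groups and a bar at each group mean. The genes were picked among called genes that averaged 1 FPKM or more and whose red and blue points did not overlap. For most of the rises the blue points lie between the red and the grey points.

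The small proline-rich proteins and the LCE3 proteins, precursors of the cornified envelope that keratinocytes make in injured or psoriatic skin, fell almost as whole families. Of 12 small proline-rich genes tested, 10 were lower (median log2 fold change -4.06), and all 6 LCE3 genes were lower (median -4.52). Sprr2b was at 136, 261, 473 and 204 FPKM in the IMQ + NS samples and at 1.03, 0.447, 1.52 and 1.71 FPKM in the IMQ + BZLF samples (log2 fold change -7.70 ± 0.44 (SE), adjusted p = 8.26e-05). Sprr2d was at 226, 459, 722 and 407 FPKM with saline and 0.983, 0.573, 6.85 and 6.20 FPKM with BZLF (log2 fold change -7.46 ± 0.76 (SE), adjusted p = 0.00151). The treated samples did not overlap the saline samples for either gene, but for Sprr2d replicates 3 and 4 of the treated group lay well above replicates 1 and 2. The same split was seen for Sprr2e, at 36.2, 55.1, 108 and 72.2 FPKM with saline and 0.239, 0.161, 1.02 and 0.830 FPKM with BZLF (log2 fold change -6.83 ± 0.50 (SE), adjusted p = 0.000414). Sprr2i followed with a log2 fold change of -5.42 ± 0.52 (SE, adjusted p = 0.00134). Lce3e was at 11.2, 20.2, 44.9 and 14 FPKM with saline and 0, 0.0429, 1.88 and 2.49 FPKM with BZLF (log2 fold change -5.23 ± 1.06 (SE), adjusted p = 0.0228), a call that was lost without IMQ + BZLF replicate 2 or without any of IMQ + NS replicates 2, 3 and 4. Lce3f was at 14.1, 21.4, 52.1 and 22.4 FPKM with saline and 0.0831, 0.0840, 1.51 and 2.72 FPKM with BZLF (log2 fold change -5.29 ± 0.90 (SE), adjusted p = 0.0117). The Sprr2 genes are related copies, as are the Lce3 genes, so how reads were divided among them is uncertain and the family counts may not be counts of independent genes. The exceptions were Sprr1a, at 1478, 1121, 1387 and 1398 FPKM with saline and 1646, 1863, 1419.7 and 1338 FPKM with BZLF (log2 fold change 0.21 ± 0.13 (SE), adjusted p = 0.373), and Sprr4 (log2 fold change 0.29 ± 0.30 (SE), adjusted p = 0.613), both named after their values were seen. Sprr1a remained above its control level of 88.9 to 236 FPKM in all 8 lesion samples.

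The 250 bases before the transcription start of 3 of the neighbouring Sprr2 genes are shown because these genes fell together. They are read 5′ to 3′ on the strand of the gene from RefSeq promoters of the GRCm38.p6 build, and capitals mark an AP-1 motif (TGANTCA) or an NF-kappa B motif (GGGA, then 4 bases of any kind, then CC) on either strand. Sprr2b lies at chr3:92316455-92316704 (+ strand), Sprr2d at chr3:92338890-92339139 (+ strand) and Sprr2e at chr3:92351893-92352142 (+ strand).
Sprr2b: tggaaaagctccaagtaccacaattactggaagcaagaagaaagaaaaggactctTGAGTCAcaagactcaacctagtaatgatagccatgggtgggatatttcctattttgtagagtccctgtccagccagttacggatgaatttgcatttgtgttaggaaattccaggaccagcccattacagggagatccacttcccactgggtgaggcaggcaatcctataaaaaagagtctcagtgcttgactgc
Sprr2d: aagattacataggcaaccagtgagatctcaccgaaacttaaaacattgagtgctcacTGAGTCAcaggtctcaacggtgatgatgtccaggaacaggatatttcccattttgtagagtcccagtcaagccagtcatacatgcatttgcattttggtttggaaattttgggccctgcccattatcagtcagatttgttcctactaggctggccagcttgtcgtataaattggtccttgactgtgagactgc
Sprr2e: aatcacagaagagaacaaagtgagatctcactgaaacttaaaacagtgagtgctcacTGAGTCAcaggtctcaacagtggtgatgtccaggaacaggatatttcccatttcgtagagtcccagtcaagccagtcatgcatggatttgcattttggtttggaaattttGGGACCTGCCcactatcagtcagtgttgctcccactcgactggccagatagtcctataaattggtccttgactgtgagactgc
An AP-1 motif with the letters TGAGTCA stood 195 to 189 bases before the start of Sprr2b and 193 to 187 bases before that of Sprr2d and Sprr2e. Over their aligned bases Sprr2d and Sprr2e were 90.7% identical, and Sprr2b was 72.6% identical to Sprr2d and 73.0% to Sprr2e.

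The epidermal differentiation complex spans chr3:90511034-93564645 (GRCm38.p6, 3.05 Mb) from S100a1 to S100a10 and was not changed evenly. Of its 62 genes tested, 21 were lower (33.9%) and 2 higher, whereas 2.07% of the genes elsewhere were lower. With 0.406% of the genes tested, it held 6.25% of all lower genes. The lower genes stood in 4 places, with S100a8, S100a9 and Pglyrp4 in the first, Pglyrp3 and the Sprr2 and Sprr1b genes in the second, the Lce3 genes in the third and Rptn near the far end. Rptn, repetin, was at 26.4, 48.3, 62.3 and 22.7 FPKM with saline and 3.08, 5.15, 9.10 and 14.96 FPKM with BZLF (log2 fold change -2.41 ± 0.49 (SE), adjusted p = 0.0221), a call lost without IMQ + BZLF replicate 2 or without IMQ + NS replicate 2 or 3. Between the Sprr and Lce3 genes lay the LCE1 genes, which form the envelope of normal skin. Of 14 LCE1 genes only Lce1m, on the far side of the Lce3 genes, was called, and it was higher. The median log2 fold change of the LCE1 genes was 0.17, and the genes of loricrin (Lor, 0.35, adjusted p = 0.586), filaggrin (Flg, 0.07, adjusted p = 0.933) and involucrin (Ivl, 0.24, adjusted p = 0.437), named after their values were seen, did not pass the test. The S100 genes other than S100a8 and S100a9 were not called.

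**Figure D3:**
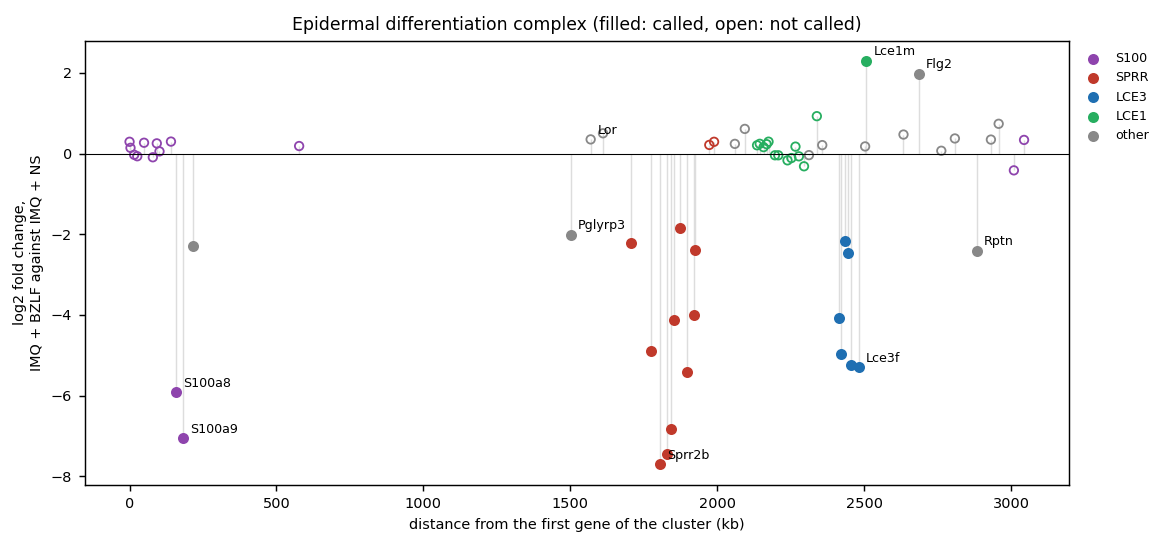
Log2 fold change of IMQ + BZLF against IMQ + NS for the 62 genes tested in the epidermal differentiation complex, against the distance of each gene from the start of the first gene in kb. Filled points are called genes and open points are not, colours give the gene family, and the filled SPRR and LCE3 points between -1.85 and -7.70 stand on either side of open LCE1 points near 0.

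The promoters of Lce1m (chr3:93019062-93019311, - strand) and Flg2 (chr3:93197023-93197272, + strand), the 2 genes of the complex that were higher, are given in the same way, with the C/EBP motif TTGCNNAA as a further motif in capitals.
Lce1m: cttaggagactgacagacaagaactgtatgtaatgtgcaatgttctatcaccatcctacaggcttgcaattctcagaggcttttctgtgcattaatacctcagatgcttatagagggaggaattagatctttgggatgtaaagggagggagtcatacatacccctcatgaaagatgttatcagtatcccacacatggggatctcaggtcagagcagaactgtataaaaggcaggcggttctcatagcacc
Flg2: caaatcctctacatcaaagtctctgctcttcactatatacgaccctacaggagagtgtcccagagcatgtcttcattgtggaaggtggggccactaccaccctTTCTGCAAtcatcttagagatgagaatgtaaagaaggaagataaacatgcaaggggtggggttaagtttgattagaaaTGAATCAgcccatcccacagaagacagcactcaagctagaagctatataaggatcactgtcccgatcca
Lce1m held none of the motifs searched in this window, and Flg2 held a C/EBP motif 147 to 140 bases and an AP-1 motif 69 to 63 bases before its start.

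Lce1m was at 14.6, 9.97, 7.76 and 7.52 FPKM with saline and 38.8, 61.7, 70.9 and 30.2 FPKM with BZLF, beside 114 to 334 FPKM in control skin (log2 fold change 2.30 ± 0.30 (SE), adjusted p = 0.00411). Flg2, filaggrin-2, a filaggrin-like protein of the granular layer, was at 2.16, 0.869, 1.20 and 0.669 FPKM with saline and 3.69, 6.08, 6.68 and 3.22 FPKM with BZLF, beside 7.85 to 15.8 FPKM in control skin (log2 fold change 1.98 ± 0.35 (SE), adjusted p = 0.0134), a call lost without IMQ + BZLF replicate 2. The treated samples were above all saline samples and below all control samples for both genes. The same order held for Krt77, a type II keratin of suprabasal epidermis. It had the largest rise among called genes that averaged 1 FPKM or more and whose groups did not overlap. It was at 6.97, 2.85, 2.002 and 2.68 FPKM with saline, 21.7, 58.3, 32.5 and 25.1 FPKM with BZLF and 310.3 to 787 FPKM in control skin (log2 fold change 3.27 ± 0.40 (SE), adjusted p = 0.00354). Among 25 genes of late epidermal differentiation the rises of Flg2 and Krt77 and the fall of Rptn were the only calls, and the median log2 fold change was -0.08. The number of lower genes in this list was 0 without IMQ + BZLF replicate 2 or IMQ + NS replicate 2 or 3, 3 without IMQ + BZLF replicate 3 and 2 when IMQ + NS replicate 4 was left out. Krt1 (log2 fold change -1.20 ± 0.31 (SE), adjusted p = 0.0534) and Krt10 (log2 fold change -0.48 ± 0.35 (SE), adjusted p = 0.462), the keratin pair of suprabasal keratinocytes, did not pass the test and were named after their values were seen.

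Keratins of the thickened epidermis fell. Krt16 was at 309, 485, 839 and 486 FPKM with saline and 9.35, 8.47, 15.7 and 52.3 FPKM with BZLF (log2 fold change -4.95 ± 0.54 (SE), adjusted p = 0.00183). Krt6b, which pairs with Krt16, was at 225, 393, 606 and 405 FPKM with saline and 12.02, 16.1, 13.95 and 37.6 FPKM with BZLF (log2 fold change -4.42 ± 0.38 (SE), adjusted p = 0.000879). IMQ + BZLF replicate 4 was the highest treated sample for both, and every treated sample was below every saline sample but above the control levels of 2.28 to 3.27 FPKM for Krt16 and 1.36 to 2.68 FPKM for Krt6b. Krt6a fell too, so 3 of the 4 keratins of this list were lower (median log2 fold change -3.40), and the fourth, Krt17, named after its values were seen, did not pass the test (log2 fold change -0.44 ± 0.14 (SE), adjusted p = 0.108). Among 10 genes of the basal epidermis only Krt14 was called. It was at 1589.9, 2000.5, 2958 and 1852 FPKM with saline and 516, 896, 697 and 748 FPKM with BZLF (log2 fold change -1.54 ± 0.22 (SE), adjusted p = 0.00571). Its partner Krt5, named after its values were seen, was lower in every treated sample without reaching the fold limit (log2 fold change -0.78 ± 0.15 (SE), adjusted p = 0.0183). Itga6, Itgb4, Lamb3 and Trp63 also passed the adjusted p without reaching the fold limit, with log2 fold changes of -0.77 to -0.25. In 6 of the 10 basal genes all treated samples lay below all saline samples, against 10.9% of all genes. None of 25 cell cycle genes was called, although 23 had a log2 fold change below 0 (median -0.21), as had 8415 of all 15288 genes. In 9 of the 25 all treated samples lay below all saline samples, against 10.9% of all genes. In 1 they all lay above, against 4.24%. Birc5 (log2 fold change -0.46, adjusted p = 0.0399), Mcm5 (-0.32, adjusted p = 0.0372) and Mcm6 (-0.28, adjusted p = 0.0477) passed the adjusted p without reaching the fold limit. Mki67, the gene of the proliferation marker Ki67, was at 21.5, 21.4, 24.7 and 21.5 FPKM with saline and 22.6, 18.7, 20.1 and 21.2 FPKM with BZLF (log2 fold change -0.11 ± 0.07 (SE), adjusted p = 0.422), with a 95% interval of -0.28 to 0.06 for the log2 fold change. Mki67 was named after its values were seen. The study reported that BZLF lowered Ki67 protein staining in sections of the lesions, whereas these values are RNA of whole skin with its hair follicles. In control skin the cell cycle sum was 661 FPKM in replicate 2, which also had the highest hair shaft and inner root sheath sum (2331 FPKM). In the other control samples the cell cycle sum was 141 to 181 FPKM. The part of hair follicles in the cell cycle RNA was not tested.

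Among protease inhibitors and proteases of the upper epidermis, several related genes were lower together. Of 10 stefins and cystatins 6 were lower (median log2 fold change -1.56), and all 9 genes of the stefin A cluster, whose products inhibit lysosomal cysteine proteases, were lower (median -3.19). Csta3 was at 80.1, 187, 281 and 168 FPKM with saline and 2.72, 1.15, 2.07 and 4.82 FPKM with BZLF (log2 fold change -6.04 ± 0.45 (SE), adjusted p = 0.000432). Stfa2l1 was at 3.78, 8.59, 13.8 and 11.9 FPKM with saline and 0.498, 0.126, 1.29 and 0.177 FPKM with BZLF (log2 fold change -4.18 ± 0.59 (SE), adjusted p = 0.00612), and Cstdc4 had a log2 fold change of -4.66 ± 0.79 (SE, adjusted p = 0.0116). The most abundant gene of the cluster in saline-treated lesions was Cstdc5, at 3254, 5016, 6405 and 2955 FPKM with saline and 208, 286, 873 and 963 FPKM with BZLF (log2 fold change -3.15 ± 0.51 (SE), adjusted p = 0.00966). Cstdc5 was far above its control level of 6.70 to 12.3 FPKM in every treated sample. Stefin A copies share sequence, so the division of reads among them is uncertain. Of 18 serpins 5 were lower (median -0.41), namely Serpina3n and all 4 tested Serpinb3 genes, mouse relatives of the human squamous cell carcinoma antigens. Serpinb3a was at 23.5, 50.7, 71.04 and 27.7 FPKM with saline and 0.411, 0.511, 1.56 and 1.06 FPKM with BZLF (log2 fold change -5.48 ± 0.44 (SE), adjusted p = 0.00057), and Serpinb3d had a log2 fold change of -4.84 ± 0.53 (SE, adjusted p = 0.00183). Of 12 kallikreins, serine proteases that cleave the junctions between corneocytes, 7 were lower and none higher (median -1.21). Klk6 was at 140.0, 133, 297 and 184 FPKM with saline and 17.3, 32.6, 27.3 and 34.5 FPKM with BZLF (log2 fold change -2.72 ± 0.29 (SE), adjusted p = 0.00157). Of 7 TMPRSS11 proteases 3 were lower and 4 were not called. Of 4 peptidoglycan recognition proteins Pglyrp1, Pglyrp3 and Pglyrp4 were lower. Of 4 gasdermin C genes listed 2 were tested, Gsdmc and Gsdmc2, and both were lower. The kallikrein, TMPRSS11, peptidoglycan recognition, gasdermin C and stefin A groups, with Cstdc5 and Klk6, were formed after values were seen and are given as description.

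Of 14 genes of the IL-1 family 6 were lower and none higher (median log2 fold change -0.41). These were Il1b, Il33 and 4 genes of the IL-36 group, namely Il1f6 (IL-36 alpha), Il1f8 (IL-36 beta), Il1f9 (IL-36 gamma) and Il1f5 (the IL-36 receptor antagonist). Il1b, a cytokine that the inflammasome activates, was at 11.98, 17.2, 55.1 and 29.7 FPKM with saline and 1.44, 1.82, 2.02 and 3.01 FPKM with BZLF (log2 fold change -3.53 ± 0.43 (SE), adjusted p = 0.00348). All treated samples lay below the control level of 5.08 to 6.44 FPKM. Il1f6, which acts on keratinocytes through the IL-36 receptor, was at 38, 53.2, 78.03 and 32.5 FPKM with saline and 1.49, 2.98, 11.1 and 5.86 FPKM with BZLF, beside 0.312 to 1.37 FPKM in control skin (log2 fold change -3.49 ± 0.55 (SE), adjusted p = 0.00904). Agonists and the antagonist of the IL-36 receptor thus fell together, while Il1a (log2 fold change -0.30 ± 0.14 (SE), adjusted p = 0.248) did not pass the test and Il1rn, the IL-1 receptor antagonist (log2 fold change -0.52 ± 0.12 (SE), adjusted p = 0.0397), did not reach the fold limit. The count of the IL-1 family was 3 without IMQ + BZLF replicate 2. Il1a and Il1rn were named after their values were seen.

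The cytokines at the start of the IL-17 pathway were scarce in all samples. Il17a was at 0.573, 0.402, 1.08 and 0.809 FPKM with saline and was listed at 0 in every treated and every control sample, so no fold change is given. Il17f was at 0.575, 0.416, 0.817 and 1.32 FPKM with saline and 0, 0, 0.0260 and 0.0125 FPKM with BZLF (log2 fold change -2.91 ± 0.30 (SE), adjusted p = 0.00157). Both were called lower, and both calls were lost when 1 rather than 0.1 was added before the logarithm. Il23a, a subunit of IL-23 named after its values were seen, was at 0.110, 0.269, 0.494 and 0.183 FPKM with saline and 0.133, 0.0575, 0 and 0.0359 FPKM with BZLF and did not pass the test (adjusted p = 0.0988). Downstream of the receptor, Nfkbiz, which encodes the transcriptional cofactor I kappa B zeta, was at 12.5, 10.2, 15.9 and 13.1 FPKM with saline and 3.47, 4.70, 4.59 and 4.82 FPKM with BZLF (log2 fold change -1.53 ± 0.15 (SE), adjusted p = 0.00134). Zc3h12a, which encodes the ribonuclease Regnase-1 that degrades inflammatory mRNAs, was at 18.7, 21.95, 26.5 and 22.9 FPKM with saline and 5.94, 6.77, 6.21 and 6.30 FPKM with BZLF (log2 fold change -1.81 ± 0.10 (SE), adjusted p = 8.26e-05). The replicates of Zc3h12a spread little, and its treated samples lay at its control level of 4.52 to 7.39 FPKM. These 4 genes were the calls among 19 of the IL-17 and IL-23 axis (median -0.29), and no receptor subunit of IL-17, IL-22 or IL-23 was called. Il17ra (log2 fold change -0.46, adjusted p = 0.0365) and Il17rc (-0.50, adjusted p = 0.00354) passed the adjusted p without reaching the fold limit. Of 14 genes of the IL-20 and IL-6 families only Il19, a cytokine of the IL-20 group made by keratinocytes, was called (median -0.58), and 2 were without IMQ + BZLF replicate 4. Socs3 (log2 fold change -0.89, adjusted p = 0.0241), Stat3 (-0.65, adjusted p = 0.0172) and Il6ra (-0.54, adjusted p = 0.0295) passed the adjusted p without reaching the fold limit. Il19 was at 1.27, 1.68, 3.10 and 2.48 FPKM with saline and at 0, 0, 0 and 0.511 FPKM with BZLF (log2 fold change -3.75 ± 0.59 (SE), adjusted p = 0.00904), so that replicate 4 alone was above 0 among the treated samples.

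Of 8 genes of the chemokines that attract neutrophils and their receptors 6 were lower (median log2 fold change -2.56). Cxcl2 was at 1.98, 3.91, 24.2 and 7.62 FPKM with saline and 0, 0, 0.0234 and 0.0225 FPKM with BZLF (log2 fold change -5.82 ± 0.63 (SE), adjusted p = 0.00177), below its control level of 0.139 to 0.708 FPKM. Cxcl5, also a ligand of CXCR2, was at 1.37, 1.31, 6.34 and 6.79 FPKM with saline and 0.0933, 0.0157, 0.0306 and 0.0737 FPKM with BZLF (log2 fold change -4.37 ± 0.55 (SE), adjusted p = 0.00387). Cxcl1 was at 1.67, 1.56, 1.87 and 2.48 FPKM with saline and 0.135, 0.354, 0.531 and 0.665 FPKM with BZLF (log2 fold change -2.05 ± 0.34 (SE), adjusted p = 0.0108). Cxcl3 was at 0.440, 1.23, 5.62 and 1.93 FPKM with saline and listed at 0 in all treated samples, and the receptor genes Cxcr1 (log2 fold change -1.68) and Cxcr2 (-3.08) were lower as well. Neither Ppbp nor Pf4, chemokines of platelets, was called. The 250 bases before the start of Cxcl2 (chr5:90903649-90903898, + strand, GRCm38.p6) are shown because they hold 2 overlapping NF-kappa B motifs, in capitals, 97 to 87 bases before the start.
Cxcl2: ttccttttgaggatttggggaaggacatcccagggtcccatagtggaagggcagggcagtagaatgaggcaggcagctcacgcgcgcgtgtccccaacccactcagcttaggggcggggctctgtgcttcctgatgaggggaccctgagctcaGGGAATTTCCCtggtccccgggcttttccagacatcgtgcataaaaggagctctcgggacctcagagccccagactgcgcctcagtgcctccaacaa
Among 26 other chemokines 5 were lower and Ccl24 was higher (median -0.14), with 2 higher without IMQ + NS replicate 1. Ccl4, a chemokine that attracts monocytes and T cells, was at 2.64, 1.86, 4.18 and 3.70 FPKM with saline and 0.0390, 0.394, 0 and 0.481 FPKM with BZLF (log2 fold change -3.60 ± 0.57 (SE), adjusted p = 0.0092). Ccl3, which is made by macrophages among other cells, was at 1.45, 1.92, 6.26 and 1.80 FPKM with saline and 0.0978, 0.264, 0.0321 and 0.433 FPKM with BZLF (log2 fold change -3.22 ± 0.53 (SE), adjusted p = 0.0107), with IMQ + NS replicate 3 far above the other saline samples. The other lower members were Ccl20, the ligand of CCR6 on T cells that make IL-17 (-2.88), Cxcl13, which attracts B cells (-2.34), and Cxcl16 (-1.17).

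Of 21 genes of TNF and NF-kappa B signaling 4 were lower, namely Tnf, Ltb, Tnfrsf9 and Bcl3, and 20 had a log2 fold change below 0 (median -0.50). Tnf was at 1.49, 1.20, 2.26 and 1.70 FPKM with saline and 0.156, 0.331, 0.675 and 0.384 FPKM with BZLF, beside 1.48 to 3.40 FPKM in control skin (log2 fold change -1.93 ± 0.32 (SE), adjusted p = 0.0108). Of the saline-treated samples 3 lay within the control range and 1 below it, and all BZLF-treated samples were below it. Ltb, lymphotoxin beta, was at 8.29, 12.9, 25.5 and 17.2 FPKM with saline and 2.07, 3.90, 6.16 and 5.42 FPKM with BZLF (log2 fold change -1.83 ± 0.39 (SE), adjusted p = 0.0282), a call lost without IMQ + BZLF replicate 2 or without IMQ + NS replicate 2, 3 or 4. The count of this list fell to 1 when treated replicate 2 or saline replicate 4 was left out and to 2 when saline replicate 3 was. The NF-kappa B subunit and inhibitor genes Nfkb1, Nfkb2, Rel, Rela and Nfkbia passed the adjusted p without reaching the fold limit. Their log2 fold changes were -0.54 to -0.21 and their adjusted p 0.0106 to 0.0429. Relb did not pass the test (-0.43, adjusted p = 0.0786). In 14 of the 21 genes all treated samples lay below all saline samples, as in 10.9% of all genes.

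Of 26 pattern receptors and inflammasome genes 12 were lower (median log2 fold change -0.81), and 8 to 13 were when any single sample was left out. Fpr2, a formyl peptide receptor of phagocytes, was at 6.31, 4.68, 11.3 and 9.69 FPKM with saline and 0.596, 0.843, 1.25 and 1.09 FPKM with BZLF (log2 fold change -2.92 ± 0.30 (SE), adjusted p = 0.00151). Clec4d, a C-type lectin of myeloid cells that binds mycobacterial glycolipids, was at 2.51, 4.09, 10.8 and 6.23 FPKM with saline and 0.0964, 0.877, 1.38 and 1.33 FPKM with BZLF (log2 fold change -2.71 ± 0.67 (SE), adjusted p = 0.0454), a call lost without any 1 of 6 of the 8 samples. Clec4e, Clec7a, Trem1, Fpr1, Nlrp3, Nod2, Gsdmc, Tlr1, Tlr9 and Tlr13 were also lower, with log2 fold changes of -3.03 to -1.06. Tlr7, the receptor of IMQ, was not called (log2 fold change -0.34), nor were the effectors Casp1 and Gsdmd. Pycard (-0.75, adjusted p = 0.00904) and Myd88 (-0.54, adjusted p = 0.0312) passed the adjusted p without reaching the fold limit.

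Of 15 matrix metalloproteinases and their TIMP inhibitors 4 were lower (median log2 fold change -0.08). Mmp8, the neutrophil collagenase, was at 2.16, 1.96, 3.48 and 2.002 FPKM with saline and 0.105, 0.191, 0.300 and 0.368 FPKM with BZLF (log2 fold change -2.90 ± 0.28 (SE), adjusted p = 0.00138). Mmp9, gelatinase B, was at 3.87, 3.32, 11.1 and 6.82 FPKM with saline and 1.02, 1.32, 0.770 and 1.41 FPKM with BZLF, beside 3.52 to 6.68 FPKM in control skin (log2 fold change -2.25 ± 0.36 (SE), adjusted p = 0.00952). The control range of Mmp9 overlapped that of the saline-treated lesions, and all treated samples were below both. Mmp13, a collagenase, and Mmp25 were lower too, and the count was 2 without IMQ + BZLF replicate 2 or 3 or IMQ + NS replicate 3 or 4. Mmp2 (-0.05), Mmp14 (-0.08) and the inhibitors Timp2 (0.25) and Timp3 (0.06) were not called, nor was Timp1 (-0.71). Of 19 eicosanoid enzymes 2 were lower (median -0.17). Pla2g4e, a cytosolic phospholipase of the epidermis, was at 11.6, 13.7, 20.6 and 13.2 FPKM with saline and 3.65, 5.24, 5.23 and 5.25 FPKM with BZLF (log2 fold change -1.57 ± 0.18 (SE), adjusted p = 0.00279). Ptgs2, which encodes the inducible cyclooxygenase-2, was at 1.77, 1.68, 3.09 and 1.79 FPKM with saline and 0.901, 0.659, 0.767 and 1.01 FPKM with BZLF (log2 fold change -1.20 ± 0.21 (SE), adjusted p = 0.0124), a call lost without IMQ + NS replicate 3, which left 1 lower gene in this list.

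**Figure D4:**
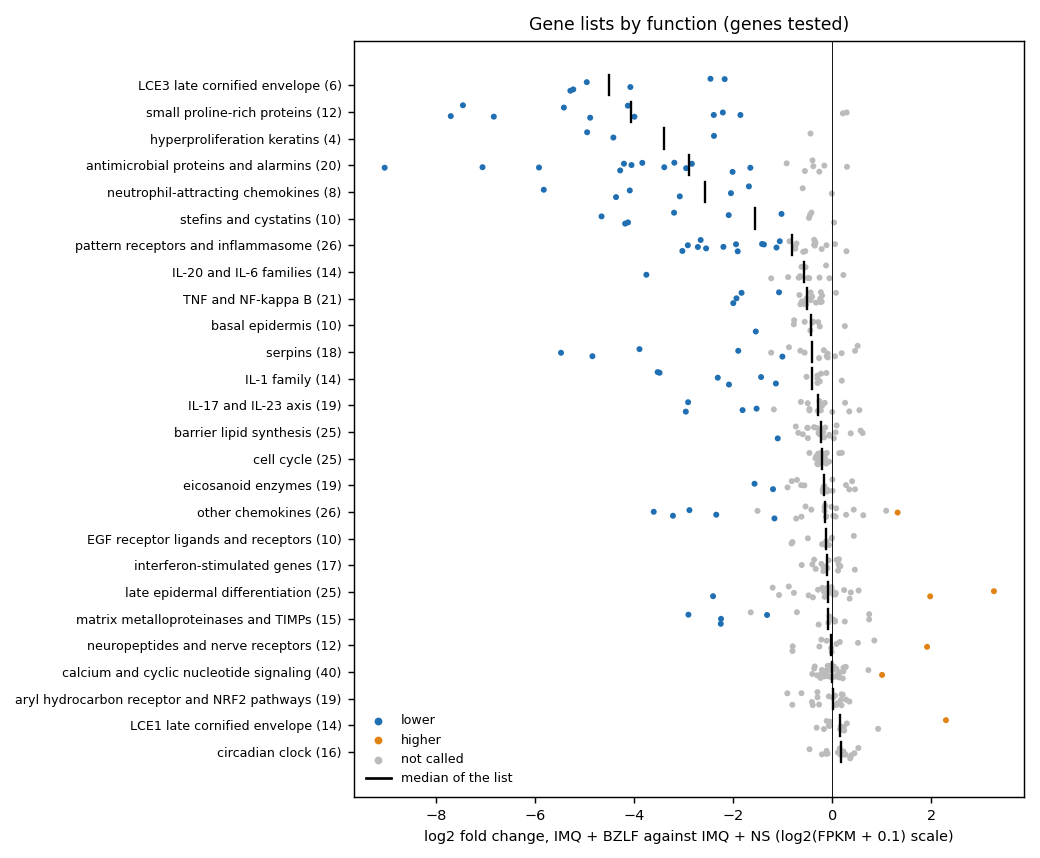
Log2 fold change of IMQ + BZLF against IMQ + NS for each gene tested (points) of 26 lists of functions, with the number of genes tested in brackets, called genes in colour and a bar at the median of each list. The medians run from -4.52 for the LCE3 genes to 0.18 for the clock genes, and most lists with a median near 0 hold few or no coloured points.

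Several pathways of the skin had few or no calls. As 2.52% of all genes were called, most of these counts were near what that share gives for lists of this size. None of 17 interferon-stimulated genes (median log2 fold change -0.10), 10 genes of EGF receptor ligands and receptors (-0.13), 19 genes of the aryl hydrocarbon receptor and NRF2 pathways, regulators and targets together (0.01), or 16 clock genes (0.18) was called. Without IMQ + BZLF replicate 4 there was 1 lower gene in each of the EGF receptor list and the aryl hydrocarbon receptor and NRF2 list, and without IMQ + NS replicate 1 there was 1 in the latter. Of 25 genes of barrier lipid synthesis 1 was lower (median -0.23), namely Degs2, which makes the phytosphingosine-type ceramides. It was at 5.53, 5.67, 6.30 and 5.41 FPKM with saline and 1.41, 3.23, 3.49 and 2.91 FPKM with BZLF (log2 fold change -1.10 ± 0.24 (SE), adjusted p = 0.0325), and its call was lost without any 1 of 7 of the 8 samples. Of 40 genes of calcium and cyclic nucleotide signaling 1, Adcy1, was higher (median -0.00), and this call was lost without 6 of the 8 single samples. Of 12 neuropeptide and nerve receptor genes 1, Gal, was higher (median -0.02).

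Of the 49 higher genes 9 belonged to any of the lists, and the others are described only where they were among the largest rises. Retnla, a resistin-like protein of macrophages under IL-4 and IL-13, was at 14.8, 10.4, 18.9 and 20.6 FPKM with saline, 37.9, 57.7, 64.4 and 58.7 FPKM with BZLF and 313 to 786 FPKM in control skin (log2 fold change 1.77 ± 0.23 (SE), adjusted p = 0.00413). Gal, the neuropeptide galanin, was at 0.410, 0.398, 0.252 and 0.348 FPKM with saline, 0.981, 1.98, 2.73 and 1.18 FPKM with BZLF and 8.19 to 22.1 FPKM in control skin (log2 fold change 1.92 ± 0.30 (SE), adjusted p = 0.00881). All treated samples of both genes were above all saline samples and below all control samples. Aldh1a1, an enzyme of retinoic acid synthesis, was at 5.59, 9.21, 4.10 and 3.85 FPKM with saline and 11.4, 15.6, 17.2 and 11.9 FPKM with BZLF (log2 fold change 1.36 ± 0.26 (SE), adjusted p = 0.0185), and Wfdc21, a small secreted whey acidic protein-domain protein, at 105, 127, 51.5 and 67.6 and 174, 228, 385 and 156 FPKM (log2 fold change 1.42 ± 0.34 (SE), adjusted p = 0.0423). These last calls were each lost without 4 or 5 of the 8 single samples. The remaining genes among the 12 largest rises were Tceal7 (log2 fold change 3.09), Glt8d2 (1.85), the muscle protein gene Mybph (1.61), the secreted Kazald1 (1.47) and Fxyd2 (1.39), a regulator of the sodium pump. Tceal7 was at 0, 0.565, 0.0256 and 0.539 FPKM with saline and 1.83, 2.25, 1.12 and 5.03 FPKM with BZLF (log2 fold change 3.09 ± 0.70 (SE), adjusted p = 0.0349), and its call was lost without 5 of the 8 single samples. Among 10 genes of resident and type 2 macrophages, grouped after their values were seen, Retnla, Ccl24 (1.32) and Timd4 (1.45) were higher and Chil3 (-3.44) was lower.

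Markers of the other cells of skin had fewer calls than those of neutrophils, beside 2.52% of all genes called. Of 14 macrophage and monocyte genes 1 was lower (median log2 fold change -0.43), namely Adgre1, which encodes F4/80, and 2 were without IMQ + NS replicate 1. In 7 of the 14 all treated samples lay below all saline samples, against 10.9% of all genes. C1qb (-0.52, adjusted p = 0.0470) and Fcgr1 (-0.81, adjusted p = 0.0283) passed the adjusted p without reaching the fold limit. Adgre1 was at 43.8, 43.7, 52.7 and 43.9 FPKM with saline and 12.9, 19.7, 19.9 and 19.98 FPKM with BZLF (log2 fold change -1.36 ± 0.14 (SE), adjusted p = 0.00157), whereas Csf1r, named after its values were seen, did not pass the test (log2 fold change -0.16 ± 0.16 (SE), adjusted p = 0.609). Of 14 dendritic and Langerhans cell genes, Itgax and Ccr7 were lower (median -0.03). Itgax, which encodes CD11c and is also made by macrophages and neutrophils, was at 2.32, 2.23, 3.89 and 2.75 FPKM with saline and 0.535, 0.968, 1.23 and 1.25 FPKM with BZLF (log2 fold change -1.43 ± 0.26 (SE), adjusted p = 0.0153), a call lost without IMQ + BZLF replicate 2. Of 12 T cell genes Icos (log2 fold change -1.78 ± 0.45 (SE), adjusted p = 0.0493) and Foxp3 (log2 fold change -1.09 ± 0.27 (SE), adjusted p = 0.0446) were lower (median -0.57), and neither call held without any 1 of 7 of the 8 samples. Both were named after their values were seen. The pan-T cell gene Cd3e, also named after its values were seen, was at 0.849, 1.43, 2.65 and 0.970 FPKM with saline and 0.774, 1.28, 0.830 and 0.983 FPKM with BZLF and did not pass the test (adjusted p = 0.44). Of 5 B cell genes Cd79b, a part of the B cell receptor, was lower (median -1.10), and 2 were lower without replicate 4 of either group. Cd79b was at 4.53, 3.12, 3.94 and 5.14 FPKM with saline and 1.09, 1.35, 1.91 and 1.80 FPKM with BZLF (log2 fold change -1.39 ± 0.20 (SE), adjusted p = 0.00675). The summed B cell level was 9.43 to 11.9 FPKM with saline and 2.36 to 14.0 FPKM with BZLF, where IMQ + BZLF replicate 4 alone was above the saline samples. No gene of 8 mast cell markers was called, and 1 was lower without IMQ + BZLF replicate 4 or IMQ + NS replicate 1.

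Few genes of the hair follicle, muscle and other structures of the skin were called, beside 2.52% of all genes. Of 23 genes of the hair shaft and inner root sheath 22 had a log2 fold change above 0 (median 0.32) and none was called, and their sum was 14576 to 19598 FPKM with saline, 18554 to 27217 FPKM with BZLF and 36.4 to 2331 FPKM in control skin. All 10 melanocyte genes had a log2 fold change above 0 as well (median 0.32), with none called. For 17 skeletal muscle genes the median was 0.48 and Myl1, a myosin light chain, was called. It was at 21.6, 39.01, 20.6 and 21.7 FPKM with saline and 49.5, 57.1, 38.6 and 76.05 FPKM with BZLF (log2 fold change 1.11 ± 0.25 (SE), adjusted p = 0.0314), with overlapping groups. The call of Myl1 was lost without IMQ + BZLF replicate 2 or 4 or IMQ + NS replicate 1, 3 or 4, and 3 genes of the list were higher without IMQ + NS replicate 2. The muscle genes Mybph and Actc1, the latter named after its values were seen, rose as well. Actc1 was at 0.204, 0.358, 0.374 and 0.392 FPKM with saline and 0.617, 2.44, 1.11 and 1.72 FPKM with BZLF (log2 fold change 1.74 ± 0.36 (SE), adjusted p = 0.0251). The part of muscle RNA in the rises of Mybph and Actc1 was not tested. No gene was called among 13 adipocyte (median 0.31), 13 sebaceous gland (0.00), 15 vessel (-0.24), 8 nerve myelin (0.25), 8 hair follicle stem cell (0.14) and 6 red blood cell genes (0.46), although 2 sebaceous gland genes were higher without IMQ + NS replicate 1 and 1 nerve myelin gene was without IMQ + BZLF replicate 1 or IMQ + NS replicate 2. Among 20 fibroblast and matrix genes (median 0.24) Tnc alone was called, and 2 others were higher without IMQ + BZLF replicate 1. Tnc, tenascin-C, a matrix protein of injured skin, was at 22.8, 21.5, 31.6 and 35.4 FPKM with saline and 9.70, 11.04, 8.74 and 16.5 FPKM with BZLF, beside 0.558 to 5.15 FPKM in control skin (log2 fold change -1.28 ± 0.22 (SE), adjusted p = 0.0119).

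**Figure D5:**
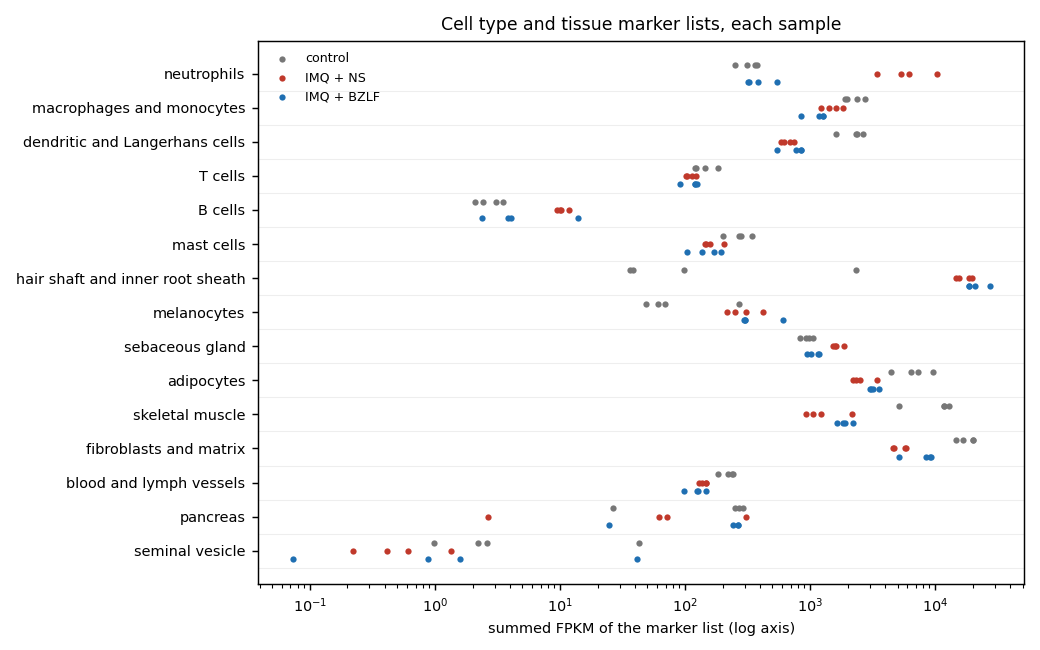
Summed FPKM of the genes of 15 marker lists in each sample, on a log axis, with grey for control, red for IMQ + NS and blue for IMQ + BZLF samples. The neutrophil sum is 3416 FPKM or more in every IMQ + NS sample and 541 FPKM or less in every IMQ + BZLF sample, and the pancreas and seminal vesicle sums vary within the groups.

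Genes that the study itself had picked were counted separately. All 9 genes measured there by RT-PCR (Cxcl1, Cxcl2, Cxcl3, Il17a, Il17f, Lcn2, Mmp9, S100a9 and Tnf) were lower, and they remained lower without any single sample. Of 25 genes tested from its list of core targets 23 were lower (median log2 fold change -2.39), Mpo was higher (1.001) and Cd22 (-1.10) was not called. The core target DEFB4A, a human symbol, was left out of this count, and mouse Defb4 was lower (-3.39). The core targets were chosen on these samples, as were at least some of the RT-PCR genes, so their direction is not independent evidence. Il17a, Tnf and Cxcl1 were measured there as cytokines known in psoriasis. Mpo, myeloperoxidase, was a granule gene of neutrophils that was higher and is given outside the rule for named genes. It was at 1.39, 0.955, 0.889 and 0.852 FPKM with saline, 1.84, 2.64, 2.08 and 1.95 FPKM with BZLF and 5.26 to 8.86 FPKM in control skin, and its call was lost without IMQ + BZLF replicate 2 or without IMQ + NS replicate 2, 3 or 4. The granule genes Prtn3 (-0.37), Ctsg (-0.996) and Camp (-0.40) were not called.

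Upstream sequence was found in RefSeq promoters for 12074 of the genes tested, with 271 of the lower and 39 of the higher genes among them. Matches on either strand were counted in the 250 bases before each start, and matches of different motifs could overlap. The NF-kappa B motif was in 21.4% of the lower, 15.4% of the higher and 22.2% of all genes. The AP-1 motif (TGANTCA) was in 11.8% of the lower, 10.3% of the higher and 5.14% of all genes, the C/EBP motif (TTGCNNAA) in 18.5%, 28.2% and 8.12%, and the STAT motif (TTCNNNGAA) in 8.12%, 7.69% and 6.14%. The median GC content of these windows was 48.8% for the lower, 53.2% for the higher and 58.8% for all genes, and its part in the shares of motifs was not tested. A match gives the letters only and does not show that a factor binds there.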

How the data were processed

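Total RNA of back skin was sequenced in 12 samples, of which the 4 IMQ + BZLF and 4 IMQ + NS samples were compared. The authors deposited FPKM values per gene and sample, not pooled over replicates. Per the methods of the study, RNA was extracted with the mirVana kit, libraries were stranded TruSeq libraries depleted of ribosomal RNA, reads were aligned to transcripts with Bowtie2, and eXpress gave FPKM and counts. The sample labels name TRIzol and the VAHTS Universal V6 kit instead, and the submitters' processing notes name fastp, HISAT2, HTSeq, R 3.2.0 and the mm10 build. Which of these made the values cannot be told apart here, so the use of strand is uncertain and genes with an antisense partner may share reads. Counts were not used here. Low values were divided by the smallest value of the same gene, and 19.3% of 16904 such quotients were whole to within 0.05, so reads were not rebuilt. The study reported the amount of clean sequence of each sample, which lay in a narrow range. The reads counted behind each FPKM value are not known here, and precision rests on the 4 samples of a group. Summed FPKM was 492551 to 506622 in IMQ + NS and 476676 to 493935 in IMQ + BZLF samples.

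Genes that averaged 0.1 FPKM or more in the 12 samples were tested on log2(FPKM + 0.1) with limma 3.58.1 in R 4.3.3 (moderated variances with a trend, 8 samples, Benjamini-Hochberg adjustment over all 15288 genes, two-sided). A fold change on this scale understates the change of low genes. Calls required an adjusted p under 0.05 together with a difference of more than 1 on the log2 scale. P-values measure the spread between the samples of a group. Tested on simulated data for this comparison (15288 genes), the fit recovered 94 of 100 genes changed by 2 and 100 of 100 changed by 4 on the log2 scale, with 2 false calls. The simulated noise was normal and independent between samples, with a common spread per gene for both groups and no lower limit on the values. Shared deviations of a sample were not simulated, so these figures may be better than those of the real data. Named genes were the 12 largest falls and rises among called genes that averaged 1 FPKM or more and whose groups did not overlap, up to 2 called genes of each list, and the genes measured by RT-PCR, 58 in all. Genes given outside this rule were chosen after their values were seen. The members, gene lists and tests were chosen with earlier results of these data known. Lists held 665 tested genes in 45 lists of functions or cell types, 12 listed symbols were not found, and 2 further lists came from the study. Lists are described by counts and medians with no set test.

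Replicate numbers were checked for pairing. Deviations from the group means of samples with the same number correlated at 0.0943, -0.0254, 0.174 and 0.260. These were not all above the chosen limit of 0.1, so the numbers were not used as pairs. IMQ + BZLF replicates 1, 3 and 4 still correlated best with the saline sample of their own number. The pancreas sums also followed the replicate numbers, so samples with the same number may not be independent. Alternatives were constants of 0.01 and 1, no filter and a mean FPKM of at least 1, 3 other scalings, all 12 samples in one fit, other variance settings, a replicate block, unadjusted p, no fold limit and leaving out each sample. Promoters came from RefSeq (GRCm38.p6), and positions were found for 15247 tested genes. The motifs and gene families were chosen after values were seen. Python 3.11.15, pandas 2.3.3 and matplotlib 3.10.9 were used.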

Additional observations from a re-analysis of the deposited data

Results flagged for a closer look

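Some genes and summed lists had 1 sample far from the other 3 of its group. The measure is the gap to the nearest other sample divided by the range of the group, judged by the 95% limit of Dixon's test for 4 samples. Of 210 groups tested 19 passed it, and chance alone passes about 1 in 20, or 10.5.

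IMQ + BZLF replicate 4 was the highest treated sample for Krt16 (52.3 FPKM, nearest 15.7, gap ratio 0.835), Krt6b (37.6 FPKM, nearest 16.1, ratio 0.843), Il19 (0.511 FPKM, others listed at 0, ratio 1) and the summed B cell genes (14.0 FPKM, nearest 4.04, ratio 0.855), and the lowest for the summed pancreas genes (24.5 FPKM, nearest 241, ratio 0.900).

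IMQ + BZLF replicate 1 was the lowest treated sample for Pla2g4e (3.65 FPKM, nearest 5.23, ratio 0.986), Adgre1 (12.9 FPKM, nearest 19.7, ratio 0.963), the summed serpins (625 FPKM, nearest 829, ratio 0.935), the chemokines other than those that attract neutrophils (358 FPKM, nearest 512, ratio 0.893), the matrix metalloproteinases and TIMPs (431 FPKM, nearest 648, ratio 0.948) and the T cell genes (91.1 FPKM, nearest 120.1, ratio 0.846). It was the highest for the melanocyte genes (607 FPKM, nearest 303, ratio 0.975) and the kidney genes (4.13 FPKM, nearest 0.252, ratio 0.963).

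IMQ + BZLF replicate 2 was the highest for the seminal vesicle genes (41.2 FPKM, nearest 1.59, ratio 0.963). IMQ + NS replicate 3 was the highest saline sample for Ccl3 (6.26 FPKM, nearest 1.92, ratio 0.902), Mmp8 (3.48 FPKM, nearest 2.16, ratio 0.869), Ptgs2 (3.09 FPKM, nearest 1.79, ratio 0.925) and Adgre1 (52.7 FPKM, nearest 43.9, ratio 0.977), and IMQ + NS replicate 2 for Myl1 (39.0 FPKM, nearest 21.7, ratio 0.941).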

How the results depend on the processing

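The 336 lower genes became 188 when 1 was added before the logarithm and 791 with no fold limit, and the 49 higher genes became 17, 195 and, at an unadjusted p below 0.05, 88. Leaving out 1 sample gave 227 to 350 lower and 19 to 78 higher genes. Under the other 10 alternatives the counts were 236 to 336 lower and 34 to 62 higher, apart from 403 lower genes at an unadjusted p. No named gene changed direction under any alternative, and 39 of 58 kept their call in all. Of the values for named genes 78 of 1213 lost the call, 46 of them with a sample left out. Adding 1 ended the calls of Cxcl3, Il17a, Il17f, Tnf, Gal, Mybph, Ptgs2, Itgax and Degs2, and the fit over all 12 samples ended those of Tnc, Aldh1a1 and Myl1. Of list medians 17 of 892 moved by more than the spread between samples. Other scalings shifted the median of all genes from -0.023 to between 0.006 and 0.031 and turned the sign of the medians of calcium signaling, dendritic cell, mast cell and neuropeptide genes, all near 0. The replicate block gave 335 lower and 47 higher genes, of which 315 and 39 were also called without it, and ended the call of Wfdc21 among the named genes. IMQ + BZLF replicate 2 correlated best with saline replicate 3 (0.109), and treated replicates 1, 3 and 4 with the saline sample of their own number. The cause of these changes was not tested. The reads behind each value are not known, so genes below about 1 FPKM rest on the spread of 4 samples.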
